A study of Mus musculus with 32 samples.

Results

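RNA polymerase II (Pol II) occupancy was examined over 10 genes of the unfolded protein response and the integrated stress response: Hspa5, Herpud1, Xbp1, Atf4, Asns, Trib3, Chac1, Atf3, Ddit3 and Ppp1r15a. They were taken by gene symbol from a table of 27179 mouse genes, and all 10 were found once each and passed the filter on low values. The table holds 8 profiles: brain, heart, kidney and liver, each once as flash frozen tissue and once as paraffin blocks made after fixing in 10% formalin (FFPE). Pol II was pulled down through its C-terminal domain. Frozen cores were crosslinked in 1% formaldehyde for 30 min, and FFPE tissue was deparaffinized and then extracted at 95 °C for 20 min, so preservation and extraction differed together. The labels give no genotype, strain, age or sex for the mice, and they name no treatment beyond preservation. The labels give 2 Pol II libraries per group, whereas each group has a single column without a replicate number. Each column is called a profile below, and p-values measure only the spread between profiles, which may be technical.

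The unfolded protein response is the reaction of a cell to misfolded protein in the endoplasmic reticulum (ER). Its sensors in the ER membrane are PERK, IRE1 and ATF6: PERK phosphorylates the translation factor eIF2alpha, IRE1 splices Xbp1 mRNA, and ATF6 is cut to release a transcription factor. Several other kinases phosphorylate eIF2alpha when amino acids or haem run short or viral RNA appears; this shared branch is the integrated stress response, in which the transcription factor ATF4 is translated and switches on genes of amino acid supply and, under long stress, of cell death. Secretory cells such as hepatocytes keep the ER branches active in health because of the protein load they export. Pol II on a gene is a measure of occupancy, which is only a proxy for transcription. It does not see the splicing and translation by which Xbp1 and Atf4 are mainly controlled.

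The promoters of several of these genes hold matches to short response elements, and they are shown so that the letters of each match can be read in place. RefSeq promoter windows on GRCm38.p6, the build also named mm10, ran from 250 bases before to 50 bases after each gene's start and were found for all 10 genes. They were searched on both strands for 6 motifs. The ER stress response element (CCAAT and CCACG with any 9 bases between them) was present in the window of Hspa5 and in 0.119% of all 32851 windows. The second form of that element (ATTGG and CCACG with any 1 base between them) was in that of Herpud1 and in 0.0365% of all windows. The C/EBP-ATF response element that ATF4 binds (TGATGCAA) was in those of Atf3, Chac1 and Herpud1 and in 0.895% of all windows. Its looser form (TGATGNAA), which includes the former, was also in those of Asns and Trib3, the latter 15 bases after the start, and in 3.97% of all windows. The cAMP response element (TGACGTCA) was in that of Ppp1r15a and in 1.79% of all windows. The unfolded protein response element (TGACGTGG) was in none of the 10 windows and in 0.676% of all. Ddit3, Atf4 and Xbp1 had no match to any of the 6. A match describes letters in the window and not a bound site.

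The stretches that hold these matches, upstream of the start and read 5′ to 3′ on the gene's strand, follow with the fixed letters of the match in capitals. TTGCATCA is TGATGCAA read on the opposite strand. They lie at chr8:94386299-94386398 (plus strand) for Herpud1, chr2:34771960-34772059 (plus) for Hspa5, chr1:191183364-191183463 (minus) for Atf3, chr2:119351012-119351111 (plus) for Chac1, chr6:7693210-7693309 (minus) for Asns and chr7:45526269-45526328 (minus) for Ppp1r15a.
Herpud1: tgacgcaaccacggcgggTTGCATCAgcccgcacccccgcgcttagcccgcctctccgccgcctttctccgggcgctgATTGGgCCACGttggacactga
Hspa5: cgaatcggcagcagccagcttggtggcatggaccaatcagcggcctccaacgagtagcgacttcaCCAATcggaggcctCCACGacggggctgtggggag
Atf3: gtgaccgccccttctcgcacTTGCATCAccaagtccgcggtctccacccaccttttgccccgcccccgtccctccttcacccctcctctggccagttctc
Chac1: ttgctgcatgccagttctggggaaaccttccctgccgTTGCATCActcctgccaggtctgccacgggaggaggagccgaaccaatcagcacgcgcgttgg
Asns: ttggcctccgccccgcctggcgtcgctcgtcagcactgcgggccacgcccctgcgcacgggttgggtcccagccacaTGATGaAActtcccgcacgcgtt
Ppp1r15a: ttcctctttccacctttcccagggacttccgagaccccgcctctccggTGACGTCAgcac
Herpud1 is the only one of the 10 with both kinds of element, the C/EBP-ATF element 112 bases and the second ER stress element 52 bases before its start.

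The profiles held between 864816 (FFPE liver) and 2178329 (frozen liver) reads in genes, and the median gene had 16 to 39 reads. The share of reads in mitochondrial genes was 25.6% for FFPE heart, 19.2% for FFPE kidney and 7.73% to 11.99% for the rest. Each organ's 6 marker genes were called higher in that organ and had a larger sum there than elsewhere in both preservations. The sum of the 6 liver markers (Alb, Fgb, Tat, Apob, Ttr and Apoa1) was 9838 CPM (reads per 1000000, on the scaled library total) in frozen liver, 1837 in FFPE liver and 93.2 to 173 in the other profiles. The 6 markers of immune and plasma cells summed to 79.9 to 119 CPM and those of exocrine pancreas to 37.3 to 67.3, with no marker of either list at 0. The profiles are of whole tissue, so more cells of a type and more Pol II per cell cannot be told apart.

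Values below are the deposited log2 CPM and are compared between profiles and not between genes. The group of ER chaperone and ER degradation genes was highest in liver. Hspa5, the ER chaperone BiP that also holds the 3 sensors inactive (chromosome 2, 34772090 to 34776529), stood at 7.55 in frozen brain, 8.04 in frozen heart, 7.75 in frozen kidney and 9.95 in frozen liver. In FFPE tissue it stood at 6.92, 7.10, 7.35 and 7.56 in that order. Liver was above every other organ in both preservations, by 2.17 over the mean of the others in frozen and by 0.43 in FFPE tissue. The last 1921 bases of Hspa5 overlap Rabepk, whose own value in frozen liver (7.001) was also above the other frozen profiles (5.28 to 5.62), and reads of the shared part cannot be separated because the strand of counting is not given.

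Herpud1, an ER membrane protein that helps assemble the degradation machinery for misfolded proteins (chromosome 8, 94386429 to 94395371), had the widest range of the 10, 4.35 on the log2 scale. It stood at 6.21 in frozen brain, 6.80 in frozen heart, 7.63 in frozen kidney and 10.05 in frozen liver, and at 5.70, 6.45, 7.14 and 7.84 in FFPE tissue. The order brain, heart, kidney, liver was the same in both preservations. The reads behind it ran from 69 in FFPE heart to 1993 in frozen liver. Xbp1, the transcription factor that spliced mRNA encodes (chromosome 11, 5520641 to 5525993), stood at 6.22 in frozen brain, 6.67 in frozen heart, 6.52 in frozen kidney and 7.94 in frozen liver, and at 6.01, 6.34, 6.16 and 6.47 in FFPE tissue. Brain was lowest and liver highest in both preservations.

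**Figure D1:**
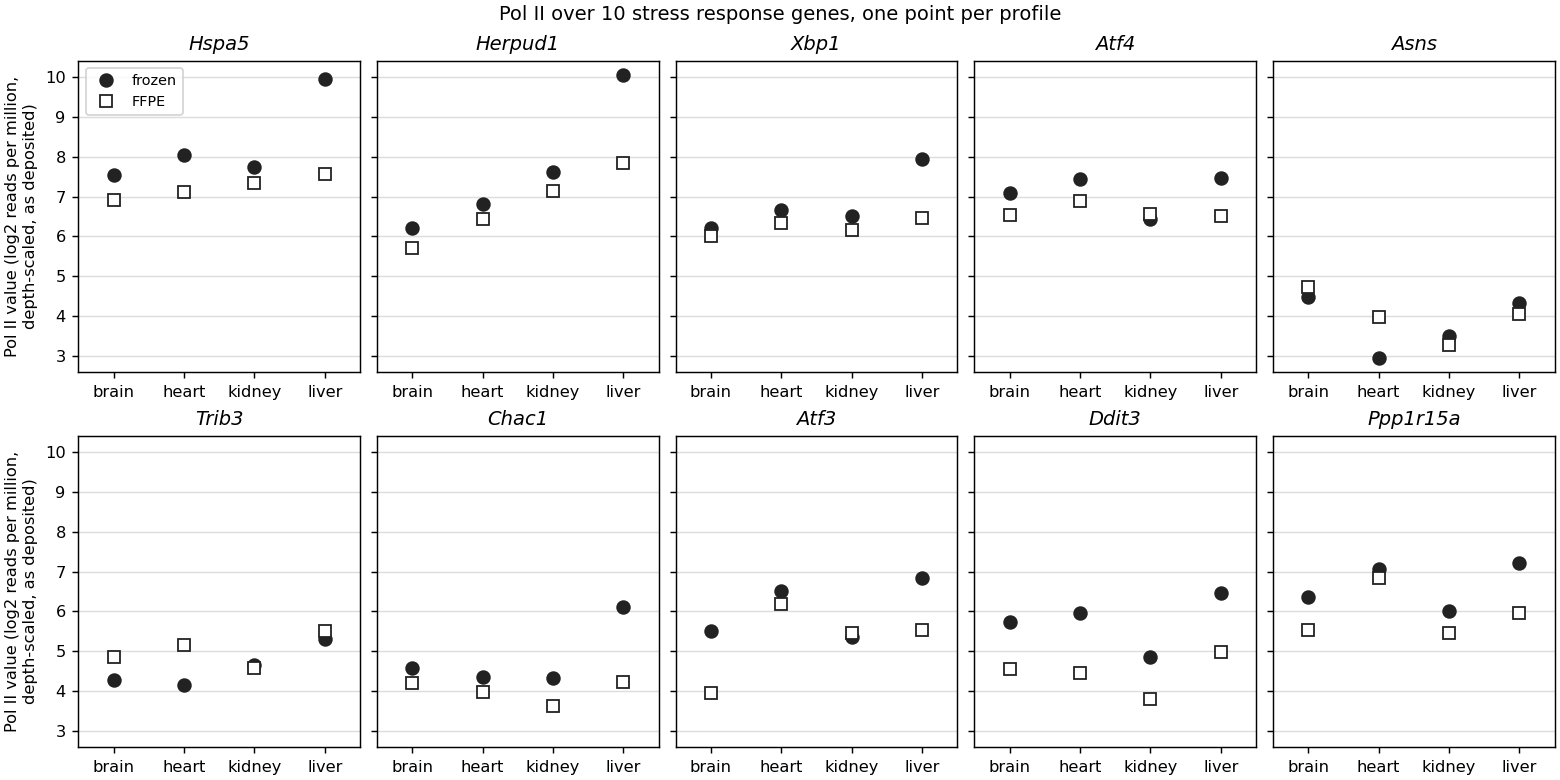
Deposited Pol II value (log2 CPM) of each of the 10 genes on the vertical axis against organ, with 1 filled circle for the frozen and 1 open square for the FFPE profile; there are no error bars because each point is a single profile. Frozen liver is the highest of the 8 profiles for 8 genes, and the organ order of Herpud1 is the same in both preservations.

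Next came Atf4 and genes that it induces. Atf4, the transcription factor of the integrated stress response (chromosome 15, 80255184 to 80257545), stood at 7.09 in frozen brain, 7.45 in frozen heart, 6.44 in frozen kidney and 7.46 in frozen liver, and at 6.55, 6.89, 6.55 and 6.50 in FFPE tissue. Its range of 1.014 was the narrowest of the 10, and frozen kidney was its lowest profile. Asns, asparagine synthetase (chromosome 6, 7675165 to 7693209), stood at 4.49 in frozen brain, 2.95 in frozen heart, 3.49 in frozen kidney and 4.32 in frozen liver, and at 4.72, 3.97, 3.26 and 4.06 in FFPE tissue. It was the only one of the 10 with brain above all other organs in both preservations, and its values rest on 11 to 53 reads. They lie near the medians of the 6 liver markers in the other organs (3.16 to 4.53), with gene length not accounted for. Input was not analysed, and the part of background in the Asns values was not tested.

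Trib3, a pseudokinase that ATF4 and CHOP induce (chromosome 2, 152337425 to 152344060), stood at 4.27 in frozen brain, 4.15 in frozen heart, 4.66 in frozen kidney and 5.31 in frozen liver, and at 4.85, 5.16, 4.57 and 5.51 in FFPE tissue. Liver was highest in both, and its highest profile was FFPE liver. Chac1, an enzyme that degrades glutathione and is induced by ATF4 (chromosome 2, 119351242 to 119354326), stood at 4.58 in frozen brain, 4.35 in frozen heart, 4.33 in frozen kidney and 6.12 in frozen liver, and at 4.21, 3.97, 3.63 and 4.23 in FFPE tissue. Frozen liver stood apart from the other 7 profiles, which lay within 3.63 to 4.58. These 7 values also lie near the medians of the liver markers outside liver, and the part of background in them was not tested.

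The remaining genes are stress-induced regulators. Atf3, a transcription factor that is also an early response gene (chromosome 1, 191170296 to 191183333), stood at 5.51 in frozen brain, 6.52 in frozen heart, 5.36 in frozen kidney and 6.84 in frozen liver, and at 3.96, 6.20, 5.45 and 5.54 in FFPE tissue. FFPE brain was its lowest profile, with 31 reads. Ddit3, the transcription factor CHOP that drives cell death under long ER stress (chromosome 10, 127290793 to 127296291), stood at 5.73 in frozen brain, 5.96 in frozen heart, 4.86 in frozen kidney and 6.45 in frozen liver, and at 4.55, 4.46, 3.79 and 4.98 in FFPE tissue. Kidney was lowest and liver highest in both preservations. Ppp1r15a, the GADD34 subunit that returns eIF2alpha to its unphosphorylated form (chromosome 7, 45522917 to 45526268), stood at 6.38 in frozen brain, 7.06 in frozen heart, 6.01 in frozen kidney and 7.22 in frozen liver, and at 5.54, 6.84, 5.47 and 5.97 in FFPE tissue. Kidney was lowest in both preservations, and the highest organ was liver in frozen and heart in FFPE tissue. Ddit3 shares 77 bases with Mbd6 and 71 with Mars1, and Ppp1r15a shares 730 with Tulp2.

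Organs were tested with limma over all 26758 genes kept, each organ's 2 profiles against the 6 of the others with preservation as a term; errors are standard errors (SE) and p-values are Benjamini-Hochberg adjusted. In liver 3 of the 10 genes rose and none fell, where 4.52% of all genes were called higher and 3.39% lower. Herpud1 was higher by 2.29 ± 0.28, or 4.90-fold (limma, adjusted p = 8.6e-06). Hspa5 was higher by 1.30 ± 0.28 (adjusted p = 0.0040) and Xbp1 by 0.89 ± 0.25 (adjusted p = 0.028). All 10 values were above 0, with a median of 0.82 against -0.02 over all genes, and 7 had an unadjusted p under 0.05, as 19.3% of all genes had. The 7 that did not pass were Chac1 (0.99 ± 0.38), Ddit3 (0.83 ± 0.29), Trib3 (0.80 ± 0.32), Atf3 (0.70 ± 0.30), Ppp1r15a (0.38 ± 0.24), Asns (0.38 ± 0.43) and Atf4 (0.15 ± 0.23). In frozen tissue liver was above all other organs for 9 of the 10 genes, and in FFPE tissue for 6, each time 1 profile against 3. The share of all genes with liver above the other organs within a preservation was not computed, so these 2 counts are description only. Frozen liver was the highest of the 8 profiles for 8 of the 10, as it was for 18.6% of all genes. Without a trend of the variance with the level, limma called 0 of all 26758 genes in this and in every comparison below, so all calls on the 10 genes and on the pathway lists ended under that alternative.

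The liver differences rest in part on the frozen profile. Without frozen liver Herpud1 was still called (1.41), while Hspa5 (0.43, adjusted p = 0.489) and Xbp1 (0.30, adjusted p = 0.708) were not. Over the 17 alternatives tried, the adjusted p of limma ranged from 2.2e-11 to 0.123 for Herpud1, from 1.3e-07 to 0.489 for Hspa5 and from 0.00025 to 0.708 for Xbp1. Xbp1 was also not called without frozen brain (0.80), FFPE heart (0.94), frozen heart (0.83) or frozen kidney (0.83), nor with quantile normalization (0.65). Scaled to silent receptor genes, neither Hspa5 (1.34) nor Xbp1 (0.92) was called.

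**Figure D2:**
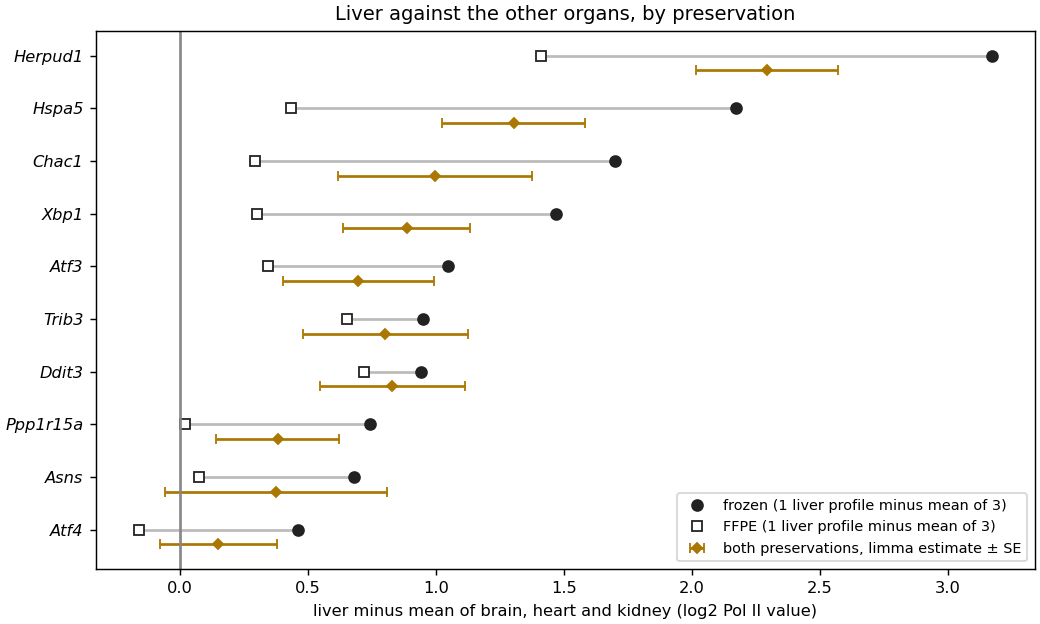
Liver minus the mean of brain, heart and kidney (log2 Pol II value, horizontal axis) for each gene, in frozen tissue (filled circles) and FFPE tissue (open squares), each 1 profile against 3, with the limma estimate ± SE over both preservations (diamonds). All 10 genes have the larger value in frozen tissue; Herpud1 has the largest in both, 3.17 and 1.41.

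In brain 2 of the 10 genes fell and none rose, where 4.02% of all genes were called lower and 3.43% higher. Of the 10, 5 had an unadjusted p under 0.05, as 18.3% of all genes had. Herpud1 stood at -1.70 ± 0.28 against the other organs (limma, adjusted p = 0.00034) and Atf3 at -1.25 ± 0.30 (adjusted p = 0.0090). Brain was below every other organ for Herpud1 in both preservations, whereas for Atf3 this held in FFPE tissue and frozen kidney was lower than frozen brain. Herpud1 was not called without frozen brain (-1.44, adjusted p = 0.103), and its adjusted p over the alternatives ranged from 1.9e-09 to 0.194. Atf3 was not called without FFPE brain (-0.73) or FFPE heart (-1.15), nor with FFPE heart and FFPE kidney both left out (-0.81), an alternative chosen after seeing the data, with a range from 0.00035 to 0.565. In heart Ppp1r15a was higher by 0.85 ± 0.24 (adjusted p = 0.038), 1 of the 10, where 3.06% of all genes were called higher and 2.18% lower, and 3 had an unadjusted p under 0.05 against 18.1% of all genes. That call was lost without either brain profile (0.82 and 0.88), either heart profile (0.52 without FFPE and 1.18 without frozen heart) or either kidney profile (0.89 and 0.81), with FFPE heart and FFPE kidney both left out (0.52) and when scaled to silent receptor genes (1.11). Its adjusted p over the alternatives ranged from 0.0030 to 0.658. In kidney limma called none of the 10, where 0.919% of all genes were called higher and 0.456% lower; 3 had an unadjusted p under 0.05, against 10.6% of all genes, Ddit3 (-1.03 ± 0.29), Ppp1r15a (-0.76 ± 0.24) and Atf4 (-0.49 ± 0.23).

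Between single organs, 12 of the 60 differences (10 genes in 6 pairs of organs) passed, where 5.54% did over all genes and pairs. Herpud1 accounted for 4 of them: brain minus liver was -2.99 ± 0.34, heart minus liver -2.32 ± 0.34, kidney minus liver -1.56 ± 0.34 and brain minus kidney -1.43 ± 0.34. The lower organs of its order were not separated from their neighbours, with heart minus kidney at -0.76 ± 0.34 and brain minus heart at -0.67 ± 0.34. For Hspa5 liver differed from brain (-1.52 ± 0.34) and heart (-1.18 ± 0.34), while kidney minus liver (-1.20 ± 0.34) had an adjusted p of 0.050 in limma, just over the threshold. Xbp1 differed between brain and liver (-1.09 ± 0.30). Atf3 was lower in brain than in heart (-1.62 ± 0.36) and liver (-1.46 ± 0.36), and heart minus liver was 0.16 ± 0.36. Ppp1r15a was higher in heart than in kidney (1.21 ± 0.29) and brain (-0.99 ± 0.29 for brain minus heart). Ddit3 differed between kidney and liver (-1.40 ± 0.35). For Atf4, Trib3, Chac1 and Asns limma called no pair, and 1, 1, 2 and 2 of their 6 pairs had an unadjusted p under 0.05. The number of calls ranged from 6 to 20 with 1 profile left out, the lowest without FFPE brain and the highest without FFPE liver. The Herpud1 differences of liver from brain and from heart were called under 16 of 17 alternatives, and the other 10 under 7 to 14.

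FFPE and frozen tissue were compared over the 4 organs with organ as a block (4 against 4 profiles). Of the 10 genes 2 fell in FFPE tissue and none rose, where 0.422% of all genes were called lower and 0.153% higher. Ddit3 stood at -1.30 ± 0.25, or 2.47-fold lower (limma, adjusted p = 0.011), and Hspa5 at -1.09 ± 0.24, or 2.13-fold lower (adjusted p = 0.038). Ddit3 was lower in each organ by a similar amount, with differences of -1.18 (brain), -1.50 (heart), -1.07 (kidney) and -1.47 (liver). Its depth-scaled reads in FFPE were 0.440 of those in frozen brain (95% exact binomial interval 0.304 to 0.628), 0.346 in heart (0.193 to 0.584), 0.470 in kidney (0.263 to 0.804) and 0.356 in liver (0.231 to 0.531), intervals that cover counting error only. Its neighbours Mbd6 (0.07 ± 0.19) and Mars1 (-0.16 ± 0.21), which overlap its ends, were not called. Hspa5 was unlike Ddit3 in that the organs differed, from -0.40 in kidney to -2.40 in liver.

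The values of the other 8 genes did not pass over all genes. Herpud1 had -0.89 ± 0.24, Chac1 -0.84 ± 0.33, Atf3 -0.77 ± 0.26, Ppp1r15a -0.71 ± 0.21, Xbp1 -0.59 ± 0.22 and Atf4 -0.49 ± 0.20, and each of these had an unadjusted p under 0.05. Asns (0.19 ± 0.38) and Trib3 (0.43 ± 0.28) had values above 0. The median of the 10 was -0.74 against -0.01 over all genes, and 8 of 10 had an unadjusted p under 0.05, as 9.32% of all genes had. Ddit3, Hspa5, Herpud1, Ppp1r15a, Xbp1 and Chac1 were lower in FFPE in all 4 organs, 6 of the 10, as 8.45% of all genes were. Only Chac1 had all 4 FFPE profiles below all 4 frozen profiles, as 1.33% of all genes had; for Ddit3, FFPE liver (4.98) lay above frozen kidney (4.86).

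Neither call held under every profile left out. Because organ is a block, a frozen or FFPE profile left out takes its organ's whole difference with it. Ddit3 kept a value between -1.24 and -1.38 with 1 profile left out, but was not called without either profile of brain (adjusted p of limma 0.062 and 0.081) or heart (0.132 and 0.163); over its 17 alternatives the adjusted p ranged from 0.0052 to 0.328. Without FFPE heart and FFPE kidney together Ddit3 had -1.32 and was not called, and Hspa5 had -1.51 and was. Hspa5 was not called without either profile of brain (-1.24), heart (-1.14) or liver (-0.66), nor without a filter, with added reads in proportion to depth (-1.09 in both) or scaled to silent receptor genes (-1.27), with a range of 0.0047 to 0.586.

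**Figure D3:**
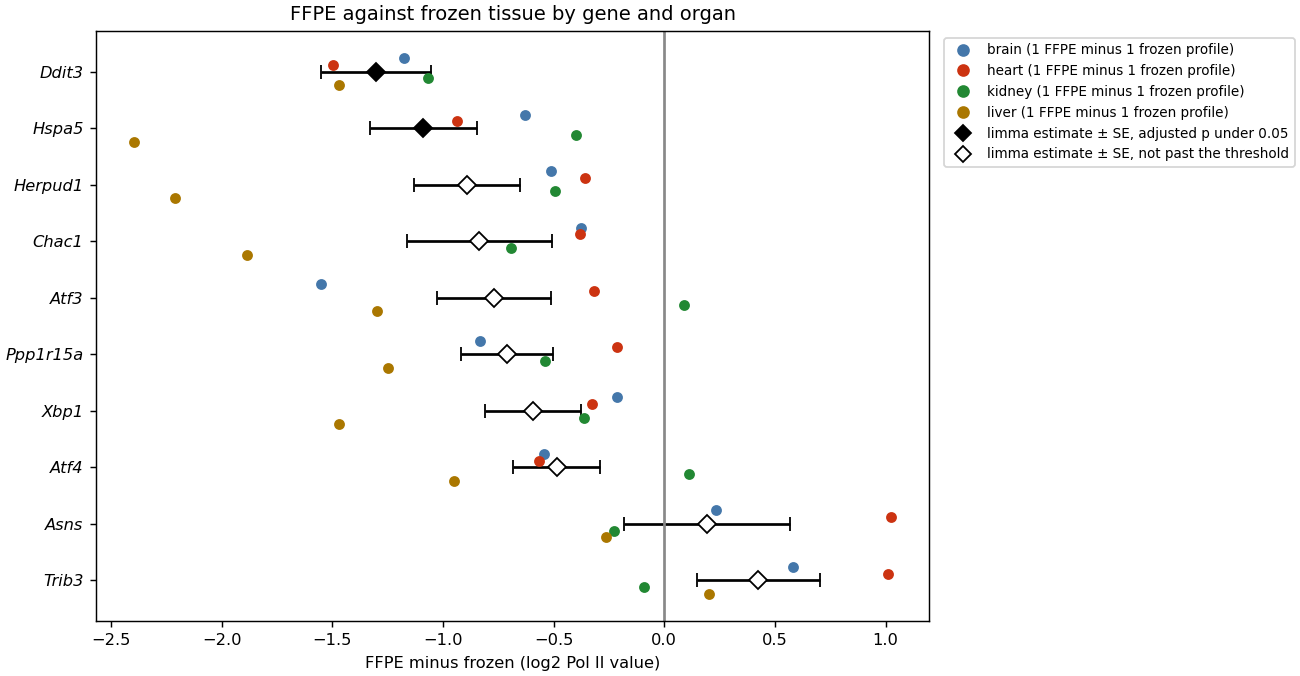
FFPE minus frozen difference in log2 Pol II value (horizontal axis) for each gene: coloured circles are single organs, 1 profile against 1, and diamonds the limma estimate ± SE over 4 organs, filled where the adjusted p is under 0.05. Ddit3 and Hspa5 have filled diamonds; the liver circles of Hspa5, Herpud1, Chac1 and Xbp1 lie to the left of the other organs.

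For Hspa5, Herpud1, Xbp1, Chac1, Atf4 and Ppp1r15a liver had a larger FFPE difference than each other organ, and whether organs differed was tested. The FFPE effect in liver minus that in the other 3 organs was -1.76 ± 0.37 for Herpud1 (limma, adjusted p = 0.015) and -1.74 ± 0.37 for Hspa5 (adjusted p = 0.017), 2 of the 10 genes, where 0.419% of all genes were called lower and 0.112% higher; 4 of the 10 had an unadjusted p under 0.05, against 11.3% of all genes. Here 1 liver difference stands against 3, and the lone value is assumed to vary like the others. Herpud1 had 0.215 of the frozen depth-scaled reads in FFPE liver (interval 0.186 to 0.248), against 0.701 in brain, 0.778 in heart and 0.710 in kidney. Hspa5 had 0.189 in liver (interval 0.161 to 0.221), against 0.645, 0.520 and 0.759. Rabepk, which overlaps Hspa5, stood at 5.61 in FFPE and 7.001 in frozen liver, and was higher in FFPE than in frozen tissue elsewhere (5.49 and 5.33 in brain, 6.12 and 5.62 in heart, 5.49 and 5.28 in kidney); its part in the Hspa5 value was not tested. Xbp1 (-1.17 ± 0.39), Chac1 (-1.40 ± 0.67), Ppp1r15a (-0.72 ± 0.41) and Atf3 (-0.70 ± 0.52) did not pass, and for Ddit3 the difference was -0.22 ± 0.54. In brain, heart and kidney none of the 10 was called, with no unadjusted p under 0.05 and 0% of all genes called.

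The liver markers moved with these values. All 6 were lower in FFPE than in frozen liver, with a median of -2.51 and a range from -3.23 (Fgb) to -1.98 (Apob). Of the 6, 4 were called in the same test. The markers of the other organs, each in its own organ, had medians of -1.04 in heart, -0.73 in kidney and -0.02 in brain. Within liver, markers of other tissues went the other way from the liver markers. Their median FFPE minus frozen differences there were 0.60 for brain, 0.38 for heart and 0.46 for kidney markers. Those for immune and plasma cells and for exocrine pancreas were 0.26 and 0.69. The spread of values over all genes was also smaller in FFPE liver (SD 1.997 on the log2 scale) than in frozen liver (SD 2.28). The part of the liver marker change or of the spread in the Herpud1 and Hspa5 differences was not tested. With quantile normalization, which gives all profiles the same spread, the differences were -0.13 for Herpud1 and -0.15 for Hspa5, and neither gene was called. Scaled to silent receptor genes (-2.15 and -2.14), neither was called. Over the 8 alternatives the adjusted p of limma ranged from 0.00028 to 0.960 for Herpud1 and from 0.00032 to 0.941 for Hspa5.

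The other genes of the pathway were followed as 5 lists. Among 16 ER chaperones and folding enzymes, 15 rose in liver with a list median of 1.33, against a median of -0.02 and 4.52% called higher over all genes. The smallest p belonged to Hyou1, a large ER chaperone (1.83 ± 0.23), and P4hb, a protein disulfide isomerase (1.69 ± 0.24). The exception was Ero1a, the oxidase that recharges protein disulfide isomerase (-0.26 ± 0.27), while its relative Ero1b rose (1.15). In brain 3 of the 16 fell, against 4.02% of all genes, P4hb (-1.09 ± 0.24), Pdia3 (-0.87 ± 0.23) and Hsp90b1 (-0.94 ± 0.28). In FFPE against frozen tissue 3 fell, against 0.422% of all genes, Calr (-0.93 ± 0.21), P4hb (-0.95 ± 0.21) and the co-chaperone Dnajb9 (-1.29 ± 0.29), with Pdia4 at -0.83 ± 0.21 not past the threshold and a list median of -0.49. Hsp90b1, the ER form of HSP90, had an FFPE effect in liver of -1.72 ± 0.38 relative to the other organs, called as for Hspa5. It was 1 of the 16 called lower in that test of 1 organ against 3, against 0.419% of all genes. Over the whole list the median FFPE effect in liver relative to the other organs was -0.89, against -0.03 over all genes. Of the 16 values 14 were below 0, as 51.1% of all genes were. The median FFPE minus frozen difference of the list was -1.17 in liver and -0.11 to -0.45 in the other organs. Alternatives were followed one by one only for the 10 genes and not for Hsp90b1 or the lists, so list results without frozen liver were not examined.

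Of 18 genes of ER-associated degradation and ER translocation 5 rose in liver, against 4.52% of all genes, led by the mannosidase-like Edem1 (1.60 ± 0.24) and the ubiquitin ligase Syvn1 (1.12 ± 0.24). In brain 1 of the 18 rose, near the 3.43% of all genes: Os9, a lectin of the degradation complex (1.72 ± 0.27). In brain 2 of the 18 fell, against 4.02% of all genes, Sec24d (-1.07 ± 0.25) and Derl2 (-0.97 ± 0.26). Os9 alone fell in heart (-1.11 ± 0.27), 1 of 18 and near the 2.18% of all genes. In FFPE against frozen tissue limma called 0 of the 18. An unadjusted p under 0.05 was seen for 2, near the 9.32% of all genes: Edem1 (-0.71 ± 0.20) and Sec61g (-0.77 ± 0.27). The list median was -0.31 against -0.01 over all genes, and 17 of the 18 values were below 0, as 51.1% of all genes were. Of 20 sensors and eIF2alpha regulators 2 rose in liver, against 4.52% of all genes: Creb3l3, a liver relative of ATF6 (2.22 ± 0.39), and Ern1, which encodes IRE1 (1.03 ± 0.26). Creb3l2 alone fell in brain (-1.19 ± 0.24), 1 of 20 and near the 4.02% of all genes. In FFPE against frozen tissue 0 of the 20 were called, also 0 at an unadjusted p under 0.05, with a median of -0.02.

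The 26 ATF4 targets moved in both directions. In liver 6 rose, led by the alanine transaminase Gpt2 (1.72 ± 0.24) and the transcription factor Cebpb (2.15 ± 0.31), and 2 fell, Vldlr (-1.05) and the cationic amino acid transporter Slc7a1 (-1.10), against 4.52% and 3.39% of all genes. In heart 4 rose, against 3.06% of all genes, led by Slc7a1 (1.31 ± 0.24) and the mTORC1 inhibitor Ddit4 (1.24 ± 0.23). In brain 4 fell, against 4.02% of all genes, led by Cebpb (-2.53 ± 0.31) and the stress cytokine Gdf15 (-1.46 ± 0.30). Cebpb alone was called lower in FFPE tissue (-1.18 ± 0.27), 1 of 26 against 0.422% of all genes. Gadd45a (-1.16 ± 0.31), Slc38a2 (-0.65 ± 0.19) and Slc7a5 (-0.65 ± 0.22) were not past the threshold. The list median was -0.42, with 19 of the 26 values below 0. Of the 26, 11 had an unadjusted p under 0.05 in limma, against 9.32% of all genes. Among 13 genes for cytosolic tRNA synthetases, with the tRNA exporter Xpot counted in, only Tars, the threonine enzyme, was called in an organ contrast (liver, 1.24 ± 0.31), 1 of 13 against 4.52% of all genes, and limma called 0 in FFPE against frozen tissue, also 0 at an unadjusted p under 0.05. In kidney none of the 5 lists had a member called, with 2, 2, 3, 5 and 1 at an unadjusted p under 0.05 among the 20 sensors, 18 degradation genes, 16 chaperones, 26 ATF4 targets and 13 synthetase genes, against 10.6% of all genes.

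**Figure D4:**
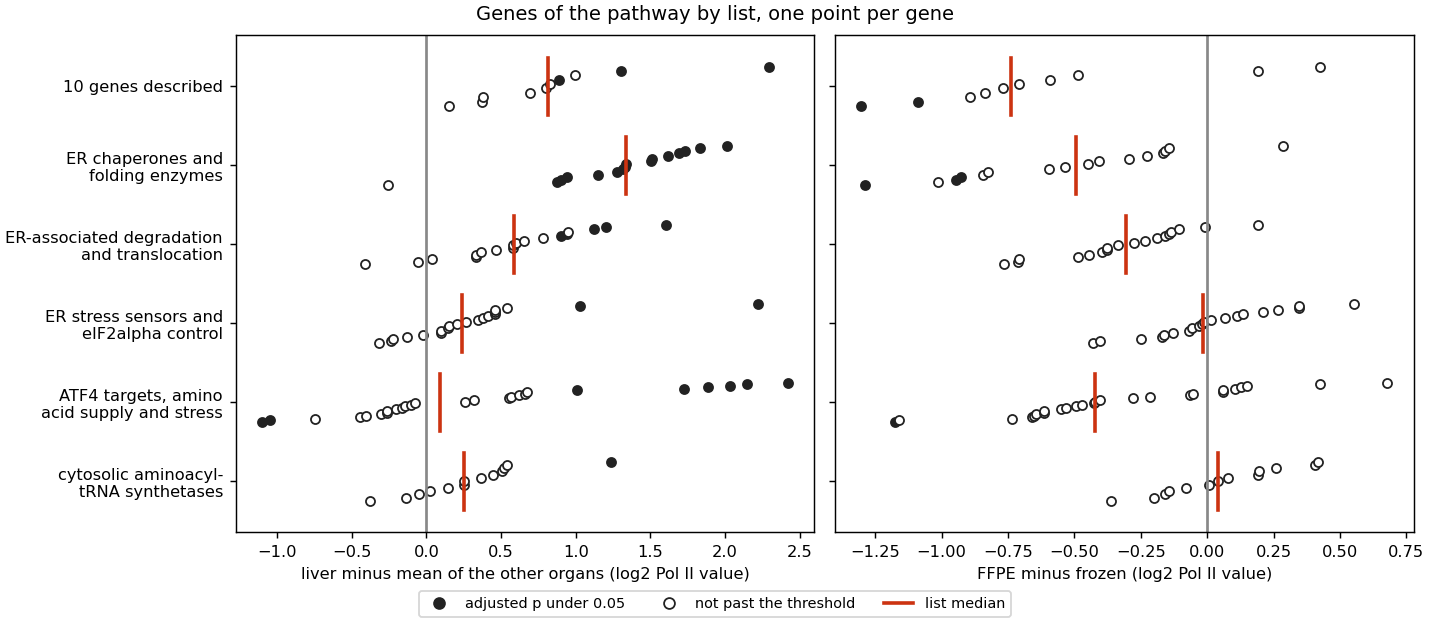
Difference in log2 Pol II value (horizontal axes) for the 10 genes and 5 pathway lists, 1 point per gene: liver minus the mean of the other organs on the left, FFPE minus frozen on the right, filled where limma's adjusted p is under 0.05, with red lines at list medians. The liver median is 1.33 for ER chaperones and 0.09 for ATF4 targets.

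Heat shock chaperones of the cytosol and mitochondria, tested in the same fit, had a median of -1.66 in FFPE against frozen tissue with 9 of 10 called lower, and early response genes one of -0.58 with 2 of 14 called lower, against 0.422% of all genes. The median of the 10 stress response genes, -0.74, lay between them.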

How the data were processed

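Pol II immunoprecipitates of 4 mouse organs, frozen or FFPE, were analysed from 1 table of 8 columns named by organ and preservation; the series has 32 libraries, of which 16 are Pol II libraries, and input was not analysed here. The values the authors deposited are log2 CPM with 0.5 reads added and a scaled library total, as the values themselves show. Bowtie2, featureCounts, limma and mm10 are named in the submitters' processing notes; the sources used here give no version, counting parameter or strand, and the labels give the 2 libraries of a group different dates and library kits without saying which of them a column holds. Taking each column's lowest value as 0 reads, 100% of values came out whole (relative tolerance 1e-06), which gave reads per gene and depth per profile. Totals between 864816 and 2178329 limit precision for genes with few reads.

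The filter asked for a log2 CPM of 0 or more in any 2 profiles and left 26758 of 27179 genes. Organ and preservation entered limma 3.58.1 (R 4.3.3), moderated with a mean-variance trend; calls took a Benjamini-Hochberg adjusted p under 0.05 across these genes. Residual degrees of freedom were 3 and the prior's 19.4; a difference between organs in the FFPE effect used 2 residual degrees of freedom. The design assumed 2 libraries per group, which the columns do not show, so profiles took their place. The FFPE and liver comparisons were run on simulated counts with the same relative spread for every gene. That run checked that the code recovers a known difference and does not bear on the calls made here. The test of the FFPE effect between organs was not simulated. All 10 genes were named; for other lists, the members with the smallest p (up to 4 in FFPE against frozen, up to 2 per organ contrast), all members where few were called, and those singled out after their values were seen (Ero1a, Ero1b, Hsp90b1 in liver, Vldlr and Slc7a1 in liver, Os9). Heat shock and early response lists are given by counts and medians. The 10 genes and the lists were chosen with earlier results of these data known. List symbols were matched through RefSeq synonyms. Alternatives were quantile normalization, mitochondrial genes left out and scaling to the median of 1485 olfactory and vomeronasal receptor genes. Further ones were other filters, no trend, voom weights, added reads in proportion to depth and leaving out profiles. Where mitochondrial genes were left out, values were rescaled to the remaining reads in place of the scaled library total.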

Additional observations from a re-analysis of the deposited data

Results flagged for a closer look

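The FFPE effect of 2 genes differed between liver and the other organs by a test of the difference itself. For Herpud1 the FFPE minus frozen difference in liver lay at -1.76 relative to brain, heart and kidney, and for Hspa5 at -1.74. Frozen liver had 1993 reads over Herpud1 and 1861 over Hspa5, and FFPE liver 213 and 175. The 6 liver markers had a median FFPE minus frozen difference of -2.51 in liver, the test has 1 organ against 3, and quantile normalization ended both calls.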

How the results depend on the processing

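Without a trend in the variance limma called none of the 10 genes in any comparison: 0 of 10 in FFPE against frozen tissue (4 at an unadjusted p under 0.05), 0 of 40 organ differences (12), 0 of 60 differences between pairs of organs (16) and 0 of 40 differences in the FFPE effect (3). It then called 0 of all 26758 genes in each of these comparisons too, so the loss was not particular to the 10.

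Of the 2 genes lower in FFPE tissue, 1 was called with added reads in proportion to depth, without a filter, when scaled to silent receptors and, added after seeing the data, without FFPE heart and FFPE kidney. Scaled to silent receptors, 1 gene was called higher in liver, 0 in heart, 5 pair differences and 0 differences in the FFPE effect; quantile normalization also gave 0 of the last. With voom weights 6 genes were higher in liver, 2 in heart, and 1 each lower in heart and kidney; quantile normalization and leaving out mitochondrial genes also gave 1 lower in heart. Without FFPE heart and FFPE kidney 1 was lower in brain and 0 higher in heart. With 1 profile left out the counts ranged from 0 to 2 lower in FFPE tissue, 1 to 4 higher in liver, 1 to 4 lower in brain, 0 to 2 higher and 0 to 1 lower in heart, 0 to 2 lower in kidney, and 6 to 20 for pairs. The cause of these changes was not tested. The counts of genes higher in FFPE tissue, brain and kidney and lower in liver were 0 under every alternative.

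Among the 747 single values followed under alternatives, sign turned for Atf4 in liver and for Asns in FFPE tissue, and none of these was called. Atf4 moved to -0.0395 with quantile normalization and a range of -0.16 (without frozen liver) to 0.46 with 1 profile left out. Asns had a range of -0.086 (without either heart profile) to 0.34 with 1 profile left out. Without FFPE heart and FFPE kidney Asns had -0.014. The 747 took in all FFPE and liver differences of the 10 genes. Other organ differences entered where limma gave an unadjusted p under 0.05, and pairs and differences in the FFPE effect where called. Of the 747, 613 kept direction and side of the threshold. Values outside this set did not all keep their sign. In FFPE tissue alone, kidney minus the other organs was 0.21 for Atf3 and 0.16 for Hspa5. Over both preservations these were -0.36 and -0.30. The median of all genes in FFPE against frozen tissue moved to 0.11 without mitochondrial genes and to -0.20 when scaled to silent receptors, and that of the 10 genes to -0.62 and -0.92. FFPE and frozen profiles were paired by organ. By replicate number, no paired analysis was possible because the columns carry no such numbers. Depth limits Asns, with 11 reads in frozen heart, most.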

Other observations

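Each of the 10 genes was also set beside 21827 genes whose log2 CPM averaged 2 or more, and the 3 with the highest Pearson correlation over the 8 profiles are given as a description; the profiles share organs and preservation, so any gene with the same few high profiles scores alike. Nearest to Hspa5 were Derl1, an ER degradation gene (0.986), Prdx6 (0.980) and Xbp1 (0.980). Xbp1 lay nearest to the ER chaperone Hsp90b1 (0.988), Hspa5 (0.980) and Dcaf5 (0.979). For Herpud1 they were Ly6g2 (0.987), Errfi1 (0.983) and H6pd, an ER enzyme (0.981). Chac1 had its paralog Chac2 (0.957), Echdc1 (0.95) and H1f4 (0.949), and Atf3 had Hnrnpab (0.986), Klhl21 (0.982) and E130102H24Rik (0.978). The values for Ddit3 were 0.974 with Ndufa7, 0.974 with Ccnh and 0.963 with Nsmce3, and for Ppp1r15a 0.971 with Dapk3, 0.970 with Ndufb2 and 0.968 with Coq9. Atf4 was nearest to Snhg1 (0.976), Ppia (0.975) and Smurf2 (0.963), Trib3 to Med23 (0.980), H2-K2 (0.962) and Dus1l (0.962), and Asns to Fam171b (0.963), Pex3 (0.948) and Lrrc40 (0.947).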
